A study of Mus musculus with 16 samples.

Results

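The 8 genes described here encode brakes on the kinase complex mTORC1 and proteins that carry its signal to translation: Ddit4 (also called Redd1), the sestrins Sesn1, Sesn2 and Sesn3, the tuberous sclerosis genes Tsc1 and Tsc2, and the 4E-binding proteins Eif4ebp1 and Eif4ebp2. They were chosen by name, and every probe set that the platform annotation gives to 1 of these symbols was taken, which gave 8 of 12393 genes named by 1 symbol, and 18 of the 22626 probe sets tested. Ddit4, Sesn3 and Tsc2 had 1 probe set each, Sesn2 and Tsc1 had 2, Sesn1 and Eif4ebp1 had 3, and Eif4ebp2 had 5.

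The data came from 16 Affymetrix arrays of liver RNA of male FvB/n mice, in a pair of experiments with 8 arrays each. In the first, mice of the high expressing TTR::Fv2E-PERK line gave 4 untreated and 4 AP20187 arrays. Both of these groups carry the transgene, in which the kinase domain of the stress sensor PERK is fused to drug-binding domains, is driven by the transthyretin promoter, and is switched on when AP20187 dimerizes it. The series text names a mock injection for the control mice, which the sample labels call untreated. In the second, the mice were wildtype or Alb::GC, and the chow was either high in fat (HFD, high fat diet) or low in it (LFD), with 2 arrays in each of the 4 groups. In Alb::GC mice the albumin promoter drives a constitutively active piece of GADD34, which directs removal of phosphate from eIF2alpha. Ages, the AP20187 dose and times, and the length of feeding are not given in the labels used here, and it is not stated whether arrays of a group are separate animals. The p-values thus rest on the spread among arrays, and part or all of it may be technical. For LFD wildtype replicate 2 a label field names both genotypes, and for AP20187 replicate 4 a field holds a single letter; their descriptions set the group.

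As background, mTORC1 sits on the lysosome and drives protein synthesis when amino acids, energy and insulin are plentiful. The TSC1-TSC2 complex turns off its activator Rheb, DDIT4 acts through that complex, and sestrins bind GATOR2 to restrain the amino acid branch. Active mTORC1 phosphorylates 4E-BPs, which otherwise hold eIF4E away from the mRNA cap. PERK phosphorylates eIF2alpha, which lowers general translation and favours translation of the transcription factor ATF4; Ddit4, Sesn2 and Eif4ebp1 are known ATF4 target genes.

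The DNA just before the start is shown for Ddit4 and Sesn2, which rose most with AP20187, and for Sesn3, the sestrin paralogue that fell. Each window holds the 250 bases upstream of the annotated start on the gene's own strand, from RefSeq (GRCm38.p6): chr10:59951771-59952020 (minus strand) for Ddit4, chr4:132510457-132510706 (minus strand) for Sesn2 and chr9:14276051-14276300 (plus strand) for Sesn3. None of these windows overlaps a gene of the RefSeq table. Capitals mark ATTGG, which is the CCAAT box read on the other strand.
Ddit4: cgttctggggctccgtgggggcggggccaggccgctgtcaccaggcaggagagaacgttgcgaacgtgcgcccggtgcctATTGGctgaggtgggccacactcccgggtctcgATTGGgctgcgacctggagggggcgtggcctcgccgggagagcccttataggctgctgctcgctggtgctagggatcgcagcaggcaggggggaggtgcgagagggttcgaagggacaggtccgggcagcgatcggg
Sesn2: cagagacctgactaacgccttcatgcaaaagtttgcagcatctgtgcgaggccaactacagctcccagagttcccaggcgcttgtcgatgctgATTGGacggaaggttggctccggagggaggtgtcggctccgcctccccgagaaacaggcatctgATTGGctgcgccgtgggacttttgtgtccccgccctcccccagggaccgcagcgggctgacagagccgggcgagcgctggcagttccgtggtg
Sesn3: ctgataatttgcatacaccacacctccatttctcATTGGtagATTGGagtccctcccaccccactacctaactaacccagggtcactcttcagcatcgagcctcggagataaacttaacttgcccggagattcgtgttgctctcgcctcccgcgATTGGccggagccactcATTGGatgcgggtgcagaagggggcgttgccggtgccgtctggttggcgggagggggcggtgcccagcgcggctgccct

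The Ddit4 window held 2 CCAAT boxes, 170 to 166 and 137 to 133 bases before the start. Sesn2 also held 2, at 157 to 153 and 93 to 89 bases, and Sesn3 held 4. CCAAT, searched on both strands, occurred in 33.8% of 32817 promoter windows of this length. The composite C/EBP-ATF letters TGATGNAA occurred in none of the 8 windows found for 7 of the 8 genes, against 3.45% of all windows, and the E-box CACGTG in none, against 6.02%. The letters TGACG of a partial CRE, which are in 17.7% of all windows, occurred in 1 window each of Sesn1, Eif4ebp2 and Tsc1 and in no window of Ddit4, Sesn2, Sesn3 or Tsc2. Eif4ebp1 had no entry. A match is a description of these letters and not of binding, and a window without one says only that the letters are not there.

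With AP20187, Ddit4 and Sesn2 rose 6.80-fold to 20.0-fold and Eif4ebp1 rose 1.63-fold to 1.68-fold on 2 of its 3 probe sets, while Sesn3, Tsc2 and 4 of 5 Eif4ebp2 probe sets were 1.68-fold to 2.59-fold lower. Sesn1 and Tsc1 did not pass the test. So the sestrin genes, the TSC genes and the 4E-BP genes each held members whose calls differed. All values are the deposited ratio of a probe set on an array, a linear number around 1 whose denominator is not given in the sources used here, so it shows change within an experiment but neither an absolute level nor detection. Differences and their standard errors are on log2(ratio + 0.05), from limma with Benjamini-Hochberg adjustment over the 22626 probe sets, and a probe set was called at an adjusted p under 0.05.

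Of the 18 probe sets, 11 were called with AP20187, 5 higher and 6 lower. Over all probe sets tested 34.1% were called, 13.7% higher and 20.4% lower. The median absolute difference was 0.71 over the 18 and 0.44 over all probe sets, and the median signed difference was -0.21 against -0.13. The untreated and AP20187 arrays did not overlap in 11 of the 18, against 35% of all probe sets.

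Ddit4 had ratios of 0.20, 0.23, 0.19 and 0.31 in untreated arrays and 5.40, 3.63, 4.29 and 5.27 in AP20187 arrays. The lowest AP20187 array was far above the highest untreated one. The mean ratio was 20.0-fold higher, and Ddit4 ranked 11 of 22626 from the largest rise, with a difference of 4.06 ± 0.17 (SE, 4 against 4 arrays, limma adjusted p = 4.56e-05).

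**Figure D1:**
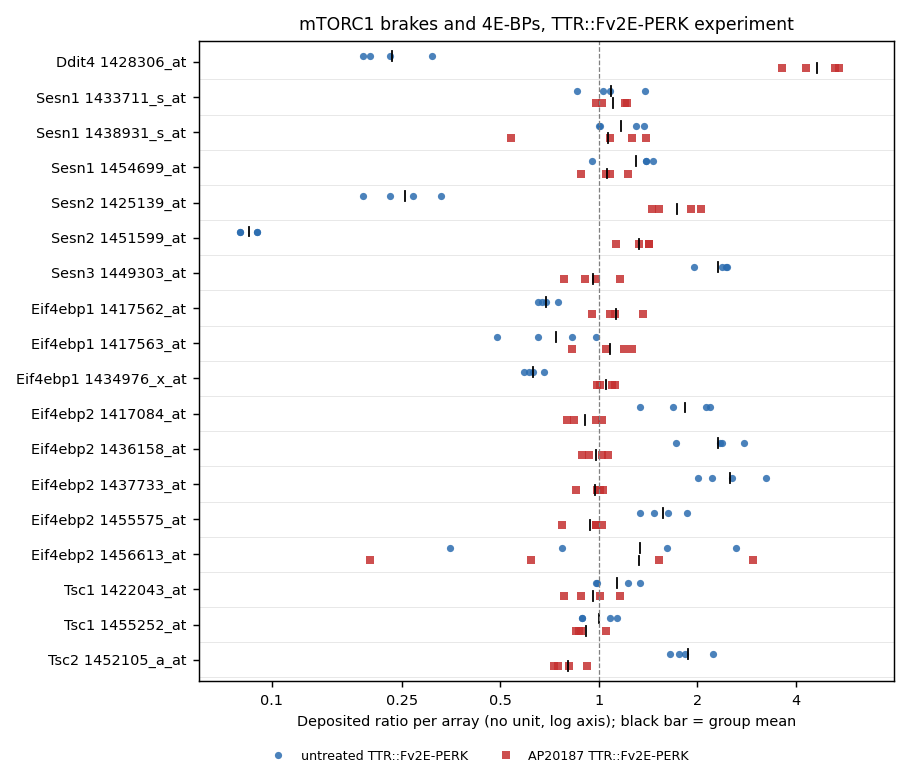
Deposited ratio (log axis) of each of the 18 probe sets on each array of the TTR::Fv2E-PERK experiment, with circles for 4 untreated arrays, squares for 4 AP20187 arrays and a black bar at each group mean. Ddit4 and both Sesn2 probe sets lie far to the right with AP20187, Sesn3, Tsc2 and 4 of 5 Eif4ebp2 probe sets lie to the left without overlap, and the groups overlap for Sesn1 and Tsc1.

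Sesn2, the sestrin known to respond to stress and to bind leucine, was measured by a pair of probe sets that the annotation assigns to the same source sequence. On 1451599_at the ratio was 0.08, 0.09, 0.09 and 0.08 in untreated arrays and 1.33, 1.42, 1.42 and 1.13 with AP20187, a 15.6-fold higher mean. Its difference was 3.34 ± 0.24 (limma adjusted p = 9.97e-05). On both probe sets every AP20187 array lay above every untreated array.

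On 1425139_at the untreated ratios of Sesn2 were 0.23, 0.33, 0.27 and 0.19 and the AP20187 ratios 1.91, 2.05, 1.53 and 1.45, a 6.80-fold higher mean. The difference was 2.56 ± 0.21 (limma adjusted p = 0.000129). The 2 probe sets ranked 45 and 137 of 22626 from the largest rise. Because the offset weighs on ratios this small, the size of the rise on 1451599_at depends on it: 3.81 with an offset of 0.01 and 2.23 with 0.25.

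Sesn3, a sestrin gene known as a FoxO target, went the other way. Its ratios were 1.95, 2.44, 2.38 and 2.47 untreated and 1.16, 0.91, 0.98 and 0.78 with AP20187, so that no array of either group reached the other. The mean was 2.41-fold lower and the difference -1.24 ± 0.14 (limma adjusted p = 0.000391). The 95% intervals of the differences were -1.55 to -0.92 for Sesn3 and 2.07 to 3.04 for the smaller of the Sesn2 values.

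Sesn1, the sestrin gene known as a p53 target, had groups that overlapped on its 3 probe sets, with differences of 0.03 ± 0.15 on 1433711_s_at, -0.19 ± 0.28 on 1438931_s_at and -0.27 ± 0.16 on 1454699_at (limma adjusted p = 0.890, 0.652 and 0.234). The widest 95% interval, on 1438931_s_at, ran from -0.83 to 0.45. On 1454699_at the untreated ratios were 1.39, 1.39, 0.95 and 1.46 and the AP20187 ratios 1.23, 1.05, 0.88 and 1.08. Without untreated replicate 3, the array at 0.95, this probe set was called, at -0.41 (limma adjusted p = 0.041).

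The TSC complex joins TSC2, the part that acts on Rheb, to TSC1, which stabilizes it. For Tsc2 the ratios were 1.76, 1.65, 1.83 and 2.24 untreated and 0.81, 0.75, 0.92 and 0.73 with AP20187. These groups did not overlap, the mean was 2.33-fold lower, and the difference was -1.17 ± 0.12 (limma adjusted p = 0.000261). For Tsc1 the groups overlapped on both probe sets. Its differences were -0.24 ± 0.15 on 1422043_at and -0.12 ± 0.12 on 1455252_at (limma adjusted p = 0.290 and 0.508), with 95% intervals of -0.59 to 0.12 and -0.41 to 0.16. Both intervals lie above that of Tsc2, at -1.44 to -0.90.

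**Figure D2:**
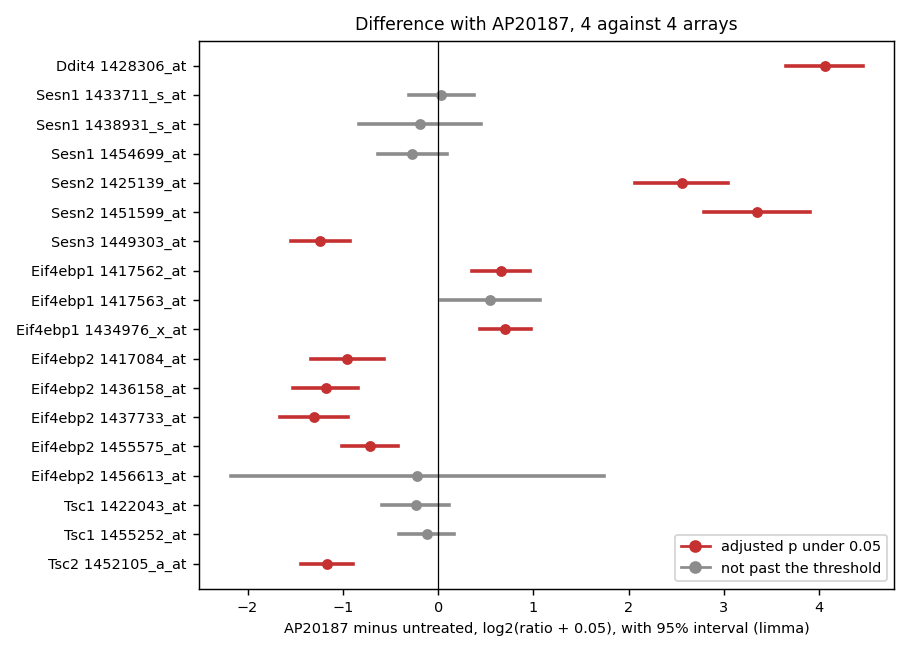
Difference between AP20187 and untreated arrays for each of the 18 probe sets on log2(ratio + 0.05), with points for the limma estimate, lines for its 95% interval and red for an adjusted p under 0.05. The 5 called rises belong to Ddit4, Sesn2 and Eif4ebp1 and the 6 called falls to Sesn3, Eif4ebp2 and Tsc2.

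Eif4ebp1 encodes the 4E-BP most studied as an mTORC1 substrate. On 1417562_at its ratios were 0.69, 0.65, 0.67 and 0.75 untreated and 1.12, 1.08, 1.36 and 0.95 with AP20187, a difference of 0.66 ± 0.13 (limma adjusted p = 0.006). On 1434976_x_at they were 0.63, 0.61, 0.59 and 0.68 against 1.10, 0.99, 1.12 and 1.01, a difference of 0.71 ± 0.12 (0.00253). Neither pair of groups overlapped, and the means were 1.63-fold and 1.68-fold higher. On 1417563_at, whose source sequence is that of 1417562_at, the untreated ratios ran from 0.49 to 0.98 and the AP20187 ratios from 0.83 to 1.26, and the value of 0.55 ± 0.23 did not pass (0.0999). The suffix x_at marks a probe set whose probes may also bind other transcripts.

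Eif4ebp2, the paralogue, fell on 4 of its 5 probe sets. The clearest was 1437733_at, with ratios of 3.25, 2.01, 2.56 and 2.21 untreated and 0.99, 1.03, 1.01 and 0.85 with AP20187, a 2.59-fold lower mean. Its difference was -1.31 ± 0.16 (limma adjusted p = 0.000538). The others that passed were 1436158_at at -1.18 ± 0.15, 1417084_at at -0.95 ± 0.17 and 1455575_at at -0.72 ± 0.13 (0.000685, 0.00305 and 0.00361). In each of these the highest AP20187 array lay below the lowest untreated array.

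The fifth Eif4ebp2 probe set, 1456613_at, did not follow the others. Its ratios were 2.63, 0.35, 1.61 and 0.77 untreated and 0.20, 1.53, 2.95 and 0.62 with AP20187. The values were scattered within both groups, with a within-group SD of 1.39 on the log2 scale that lay at the 98.3th percentile of all probe sets. Its difference of -0.22 had a 95% interval of -2.18 to 1.74, which also covers the falls of the other 4.

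Lists of cell type markers moved in the same comparison, and in whole liver fewer cells of a type and less RNA per cell cannot be told apart. Of 17 hepatocyte marker probe sets 13 were lower and 3 higher with AP20187, and their mean ratio per array was 1.53 to 1.85 untreated and 0.887 to 1.05 treated. Of 10 stellate and fibroblast probe sets 6 were lower (1.75 to 2.28 against 0.849 to 0.964), of 10 macrophage probe sets 5 and of 8 endothelial ones 2, with none higher. Of 5 cholangiocyte probe sets 1 was higher, and no lymphocyte, neutrophil, adipocyte or skeletal muscle probe set was called. Since ratios hold no level, the liver label could be checked only for 7 of 8 listed hepatocyte genes having a probe set, not for their expression. No marker probe set lay at the smallest deposited value throughout a group, and their part in the falls of Sesn3, Tsc2 and Eif4ebp2 was not tested. The log2 gap between the 3' and 5' beta-actin control probe sets was -0.18 to -0.02 untreated and -0.04 to 0.15 with AP20187. That of Gapdh was -0.06 to -0.01 untreated and -0.14 to 0.19 with AP20187, on both sides of the untreated arrays.

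To place the 8 genes in their pathway, 98 other mTORC1 pathway genes were listed by role, of which 76 had a probe set, 153 in all. With AP20187, 63 of the 153 were called, 46 higher and 17 lower, or 41.2% against 34.1% of all probe sets, with a median difference of 0.13. The role with most rises was that of other stress-induced regulators, such as Ddit3 and the FoxO genes, with 15 of 22 higher, none lower and a median of 1.30. This role was named for induction by stress, and the lists were chosen with earlier results of these data known. Its rises are therefore not read as a result about the pathway, and its calls are part of the 41.2%. In input from AKT and PI3K 7 of 20 were higher and none lower.

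Trib3, a pseudokinase that binds AKT and a stress-induced gene like Ddit4, had the largest differences in the list, 3.72 ± 0.28 on 1456225_x_at and 3.71 ± 0.26 on 1426065_a_at (limma adjusted p = 9.97e-05 and 9.85e-05). The transcription factor gene Ddit3, which encodes CHOP, followed at 3.34 ± 0.27. The insulin receptor substrate gene Irs2 rose by 2.34 ± 0.50, the thioredoxin inhibitor gene Txnip by 2.17 ± 0.22 and the transcription factor gene Foxo3 by 2.14 ± 0.53. All 6 lay on the side of Ddit4 and Sesn2.

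The amino acid branch on the lysosome, on which sestrins act, had 4 of 30 probe sets higher and 8 lower. The mTOR complex and its direct partners had 4 of 17 higher and 2 lower. The cap-binding complex and its regulators, the machinery that 4E-BPs hold back, had 10 of 31 higher and 4 lower. AMPK and LKB1 had 4 of 12 higher and none lower, autophagy and lysosome control 2 of 11 in each direction, and S6 kinase and S6 1 of 10 lower and none higher.

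**Figure D3:**
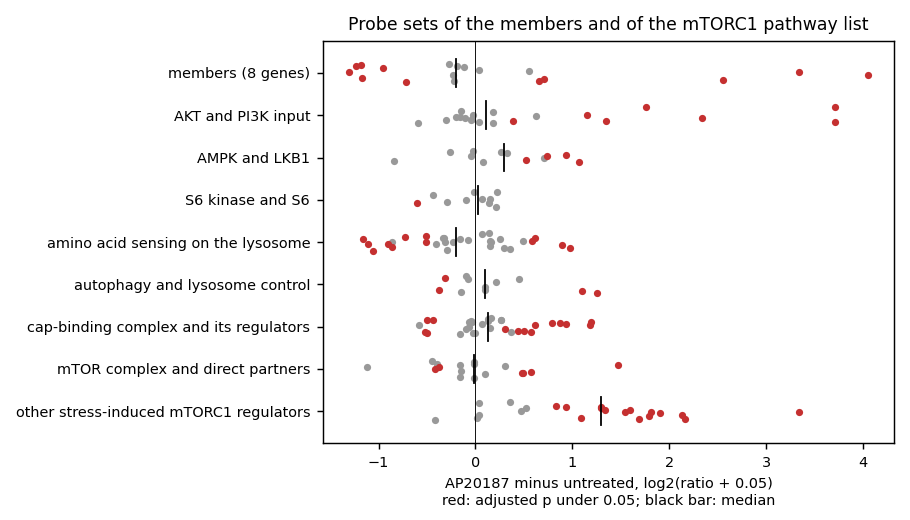
Difference with AP20187 on log2(ratio + 0.05) for the 18 member probe sets and for the 153 listed pathway probe sets by role, 1 point per probe set, red for an adjusted p under 0.05 and a black bar at the median. The stress-induced regulators, listed with earlier results of these data known, have a median of 1.30, and the member row spans -1.31 to 4.06.

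Each count of the 18 probe sets called with high fat diet is given beside the share of all probe sets. Averaged over both genotypes, 4 of 18 were called, 2 higher and 2 lower, against 27.5% of all probe sets (13.5% higher and 14% lower). In wildtype mice 1 of 18 was called, and it was lower, against 14.6% of all and 6.63% lower. In Alb::GC mice 1 of 18 was called, and it was higher, against 6.77% of all and 4.64% higher. The 4 HFD and 4 LFD arrays did not overlap in 5 of 18, against 28.8% of all. The shares of the 18 called in either direction were 22.2%, 5.56% and 5.56%. With 18 probe sets the gaps from the shares of all rest on few calls, and no trait of the members is read from them.

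**Figure D4:**
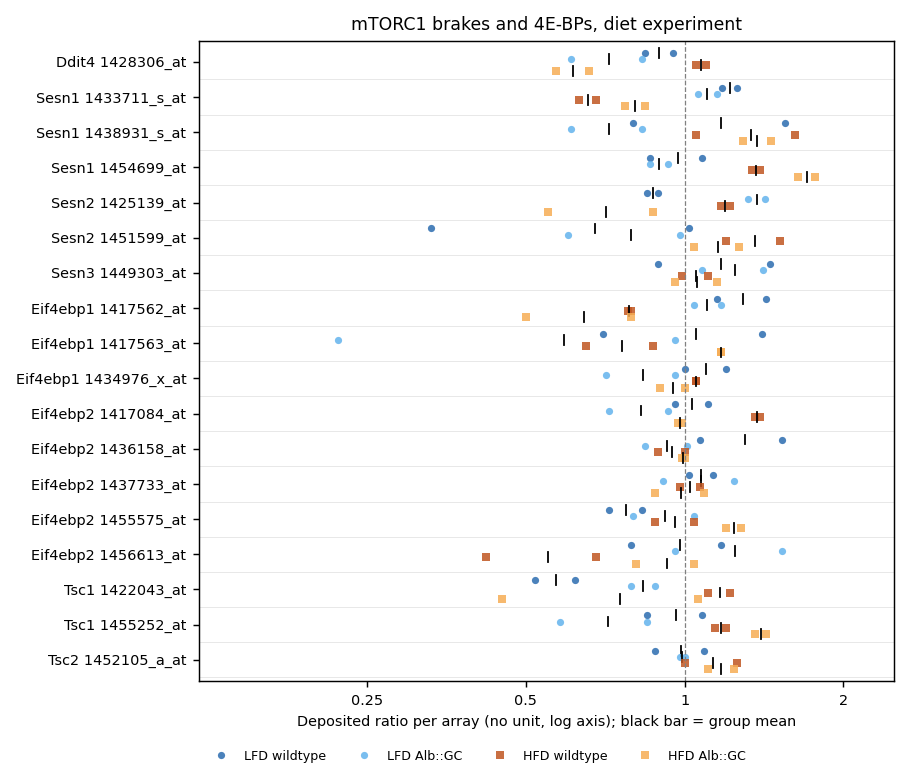
Deposited ratio (log axis) of each of the 18 probe sets on each array of the diet experiment, with circles for LFD, squares for HFD, dark colours for wildtype, light colours for Alb::GC and a black bar at each mean of 2 arrays. The 4 HFD arrays lie below the 4 LFD arrays for Sesn1 1433711_s_at and above them for Sesn1 1454699_at.

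The Sesn1 probe sets went opposite ways with HFD. On 1433711_s_at the wildtype ratios were 1.26 and 1.18 on LFD but 0.68 and 0.63 on HFD, and the Alb::GC ratios 1.15 and 1.06 on LFD but 0.84 and 0.77 on HFD. On 1454699_at the wildtype ratios were 1.08 and 0.86 on LFD but 1.39 and 1.34 on HFD, and the Alb::GC ratios 0.93 and 0.86 on LFD but 1.64 and 1.77 on HFD. In both the 4 LFD and 4 HFD arrays did not overlap, in opposite order, although the annotation gives both the same source sequence. Averaged over genotypes the differences were -0.64 ± 0.12 and 0.69 ± 0.10 (limma adjusted p = 0.0134 and 0.00829), and the third probe set, 1438931_s_at, had 0.56 ± 0.25 (0.141). No direction with diet can therefore be given for the gene.

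Within a genotype, 1433711_s_at was called in wildtype, at -0.85 ± 0.16 (limma adjusted p = 0.0258), and had -0.43 ± 0.16 in Alb::GC (0.151). Conversely 1454699_at was called in Alb::GC, at 0.89 ± 0.15 (0.028), and had 0.48 ± 0.15 in wildtype (0.0762). The difference between genotypes did not pass for either of these Sesn1 probe sets (interaction 0.42 ± 0.23 and 0.41 ± 0.21, adjusted p = 0.559 and 0.525). With only the compared groups in the fit neither was called (0.0846 and 0.0772). Leaving out each of the 8 arrays kept the first call in 4 fits, those without an Alb::GC array, and the second in 2, those without an LFD wildtype array, and adjusted p otherwise rose to at most 0.104 and 0.122.

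Eif4ebp1 was lower with HFD on 1417562_at, where the LFD ratios were 1.15, 1.43, 1.04 and 1.17 and the HFD ratios 0.79, 0.78, 0.79 and 0.50. The averaged difference was -0.72 ± 0.18 (limma adjusted p = 0.0307). Its other probe sets had values of 0.42 ± 0.45 and 0.07 ± 0.14 that did not pass, so the gene's probe sets did not share a direction. The call held in 2 of 8 fits that left out an array (LFD wildtype replicate 1 or HFD Alb::GC replicate 1), and the value ran from -0.87 to -0.57 over the 8.

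Tsc1 was higher with HFD on 1455252_at, with wildtype ratios of 1.08 and 0.85 on LFD against 1.20 and 1.14 on HFD, and Alb::GC ratios of 0.58 and 0.85 against 1.43 and 1.36. The averaged difference was 0.61 ± 0.15 (limma adjusted p = 0.0319), and the call held in 2 of 8 fits that left out an array (LFD wildtype replicate 1 or LFD Alb::GC replicate 2). In Alb::GC alone 1455252_at had 0.94 ± 0.21, which did not pass (0.055) but did with array medians set to 0 (0.0466).

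The other Tsc1 probe set, 1422043_at, had an averaged value of 0.36 ± 0.28 (limma adjusted p = 0.355). Its wildtype ratios were 0.62 and 0.52 on LFD and 1.11 and 1.22 on HFD, and its Alb::GC ratios 0.79 and 0.88 on LFD and 0.45 and 1.06 on HFD. The HFD Alb::GC arrays thus lay on both sides of the LFD ones. Both Tsc1 and Eif4ebp1 lost the call without LFD wildtype replicate 2, whose label names both genotypes (0.0752 and 0.0841).

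None of the genes with the largest AP20187 differences was called for averaged diet with all 8 diet arrays in the fit. Ddit4 stood at 0.03 ± 0.17, with a 95% interval of -0.38 to 0.44, Sesn3 at -0.17 ± 0.18 and Tsc2 at 0.21 ± 0.12. Sesn2 stood at 0.84 ± 0.35 on 1451599_at (limma adjusted p = 0.123), where the 4 HFD arrays, at 1.04 to 1.52, lay above the 4 LFD arrays, at 0.33 to 1.02. Without LFD wildtype replicate 2 this value was 1.22. On 1425139_at Sesn2 stood at -0.25 ± 0.16, an average of 0.44 in wildtype and -0.93 in Alb::GC. The 5 Eif4ebp2 probe sets ranged from -0.59 to 0.36, and none was called.

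Over the 8 diet arrays Sesn3 ran from 0.89 to 1.45, Tsc2 from 0.88 to 1.26 and Eif4ebp2 1437733_at from 0.88 to 1.24, and in each the LFD and HFD arrays overlapped. On Eif4ebp1 1417563_at 1 array, LFD Alb::GC replicate 2, stood at 0.22 and the other 7 between 0.65 and 1.40. Of 18 pairs of probe sets for 1 gene, 12 lay farther apart here than in the TTR::Fv2E-PERK experiment and 6, all of Eif4ebp2, lay closer. After centring each probe set on its mean within an experiment, the root mean square log2 gap between Sesn1 1433711_s_at and 1454699_at was 0.292 there and 0.669 in the diet experiment, that between Eif4ebp1 1417562_at and 1434976_x_at 0.0968 and 0.444, and that between the Sesn2 probe sets 0.435 and 0.751. In the other direction, Eif4ebp2 1417084_at and the scattered 1456613_at were 1.33 apart there and 0.751 here.

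Signs of RNA quality moved with diet. The log2 gap between 3' and 5' beta-actin control probe sets was -0.16 to 0.21 on the 4 LFD arrays and -0.71 to -0.33 on the 4 HFD arrays, and that of Gapdh 0.04 to 0.22 and -0.31 to -0.15. Averaged over genotypes, 4 hepatocyte marker probe sets were higher and 6 lower, 3 of 8 endothelial ones were higher, with a mean ratio of 0.779 to 1.02 on LFD and 1.16 to 1.56 on HFD, and 2 of 10 stellate ones were lower. In addition 1 macrophage, 1 lymphocyte and 1 neutrophil probe set were higher, and of 5 cholangiocyte probe sets 1 was higher and 2 were lower. The part of these in the Sesn1, Eif4ebp1 and Tsc1 values was not tested.

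**Figure D5:**
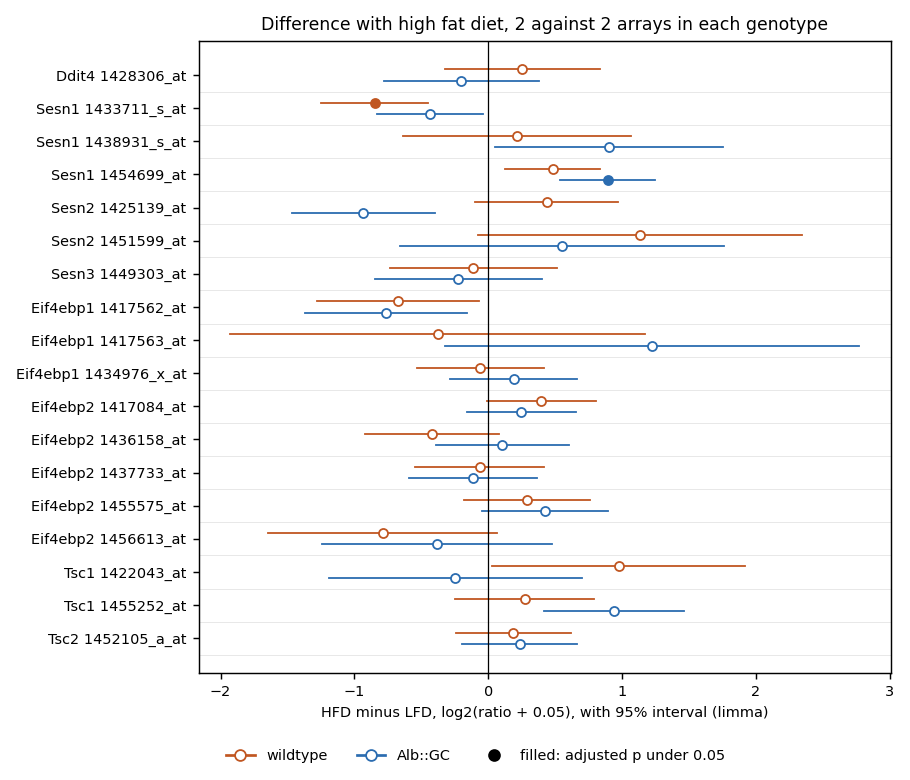
HFD minus LFD on log2(ratio + 0.05) for each of the 18 probe sets in wildtype (orange) and Alb::GC (blue), 2 against 2 arrays, with lines for the 95% interval and filled points for an adjusted p under 0.05. The 2 filled points are Sesn1 probe sets on opposite sides of 0, and for Sesn2 1425139_at the 2 genotypes lie on opposite sides.

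Genotype changed none of the 18 probe sets past the threshold. On LFD no member was called by limma (1 had an unadjusted p under 0.05), and 0% of all probe sets were. On HFD no member was called (3 by unadjusted p), against 0.133% of all, and averaged over diets none was (2 by unadjusted p), against 0%.

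Ddit4 was the 1 member whose 4 Alb::GC arrays all lay apart from the 4 wildtype arrays, a pattern that 2.7% of all probe sets had, 1.65% in the lower direction. Its ratios were 0.95 and 0.84 in LFD wildtype, 1.05 and 1.10 in HFD wildtype, 0.61 and 0.83 in LFD Alb::GC and 0.66 and 0.57 in HFD Alb::GC. The groups thus ran from HFD wildtype through LFD wildtype and LFD Alb::GC to HFD Alb::GC. The averaged difference was -0.53 ± 0.17 (limma adjusted p = 0.329), with -0.31 ± 0.24 on LFD and -0.76 ± 0.24 on HFD (0.690 and 0.316), none of which passed. On HFD the 3 neutrophil marker probe sets had a lower mean ratio in Alb::GC, 0.427 to 0.827 against 2.86 to 3.58 in wildtype. On LFD they overlapped, at 0.91 to 1.17 against 0.693 to 1.09. Endothelial (1.16 to 1.36 against 1.44 to 1.56) and stellate means (0.963 to 0.997 against 1.03 to 1.22) were also lower in Alb::GC on HFD. Cholangiocyte (1.21 to 1.35 against 0.804 to 1.06) and hepatocyte means (1.10 to 1.17 against 1.05 to 1.06) were higher. No probe set of any marker list was called for genotype on HFD. The part of cell types in the Ddit4 values was not tested.

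The other members, averaged over diets, had genotype differences of -0.27 to 0.10 on the Sesn1 probe sets, -0.06 and 0.07 on Sesn2, 0.06 on Sesn3, -0.26 to -0.20 on Eif4ebp1, -0.39 to 0.52 on Eif4ebp2, -0.09 on both Tsc1 probe sets and 0.04 on Tsc2. None passed, and the Eif4ebp2 probe sets lay on both sides of 0.

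Sesn2 on 1425139_at was higher on HFD than on LFD in both wildtype arrays (1.22 and 1.17 against 0.85 and 0.89) and lower in both Alb::GC arrays (0.55 and 0.87 against 1.42 and 1.32). Tested directly, this interaction was -1.37 ± 0.31 and did not pass (limma adjusted p = 0.220). The probe set was singled out from the 18 for this pattern, and the share of all probe sets with it was not counted. In wildtype the HFD and LFD arrays did not overlap in 6045 higher and 8139 lower of 22626 probe sets. In Alb::GC these counts were 6587 and 6991. The pattern is therefore not read as a trait of Sesn2. No member and no other probe set passed the interaction test, in which 1 member and 2517 of all probe sets had an unadjusted p under 0.05. On the other Sesn2 probe set, where LFD wildtype was at 0.33 and 1.02, the interaction was -0.58 ± 0.71.

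In the pathway list, averaged over genotypes, 53 of 153 probe sets were called with HFD, 31 higher and 22 lower, or 34.6% against 27.5% of all probe sets, with a median difference of 0.00. The count was 32 and 29 without HFD wildtype replicates 1 and 2, and 31 and 35 without HFD Alb::GC replicates 1 and 2. The largest differences were on 1 of 2 probe sets of Prkab1, an AMPK subunit gene, at 3.14 ± 0.25 (1452457_a_at), and 1 of 2 of Pdpk1, which encodes the kinase that activates AKT, at 2.76 ± 0.41. The other Prkab1 probe set had 0.15 ± 0.12 and the other Pdpk1 probe set -0.13 ± 0.11 (limma adjusted p = 0.372 and 0.426), so no direction is given for either gene. Deptor, whose product binds and inhibits mTOR and is thus also a brake, was higher by 2.21 ± 0.23 on 1451348_at (limma adjusted p = 0.0032). The others of the 6 largest were 1 probe set each of 3 genes. These were the p53 target gene Pmaip1 (2.54 ± 0.46, 1418203_at), the PI3K subunit gene Pik3r1 (2.03 ± 0.22, 1451737_at) and the autophagy kinase gene Ulk1 (2.0 ± 0.32, 1416504_at). Any other probe sets of Deptor and of these genes are not given for this comparison, so the values stand for the probe sets named.

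In wildtype alone 32 of 153 were called, 20 higher and 12 lower, or 20.9% against 14.6% of all. The count was 21 and 19 without LFD wildtype replicates 1 and 2, 18 and 20 without HFD Alb::GC replicates 1 and 2, and 0 without either HFD wildtype array. The largest differences were on single probe sets of Pmaip1 (3.35), Prkab1 (3.12), Ulk1 (2.75), Pik3r1 (2.73), Deptor (2.63) and Pdpk1 (2.43), while the other probe sets of Prkab1, Pdpk1 and Ulk1 had 0.05, -0.15 and 0.74 and were not called. In Alb::GC 23 were called, 20 higher and 3 lower, or 15.0% against 6.77% of all. The count was 4 and 7 without LFD Alb::GC replicates 1 and 2, 7 without either HFD wildtype array, and 0 without either HFD Alb::GC array. The largest were on probe sets of Prkab1 (3.16), Pdpk1 (3.09), Prkag2 (1.99), Deptor (1.86 and 1.80 on 2 probe sets) and Foxo1 (1.58). The other Prkab1 and Pdpk1 probe sets had 0.25 and -0.11, and the other Foxo1 probe sets 0.94, 0.87 and -0.78, none of them called. By role, the averaged comparison had 8 of 30 amino acid sensing probe sets lower and 2 higher, and 5 of 12 AMPK and LKB1 probe sets higher and 1 lower. No pathway probe set was called for genotype or for the interaction by limma (23 had an unadjusted p under 0.05 on LFD, 17 on HFD, 15 averaged and 25 in the interaction).

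The probe sets most like each called member were found by the root mean square difference of log2(ratio + 0.05) over the 16 arrays, each experiment centred on its own mean, where a smaller number is a closer match. Nearest to Ddit4 were the chemokine gene Cxcl10 (0.326), the kinase gene Plk3 (0.335) and Trib3 (0.336). Nearest to Sesn2 1425139_at were the antiproliferative gene Btg2 (0.230), Jun (0.287) and Mnt (0.318), and to 1451599_at the glutathione-degrading enzyme gene Chac1 (0.335), Rcan1 (0.397) and the heme oxygenase gene Hmox1 (0.432). The 2 probe sets of Sesn2 shared none of their 3 nearest genes. This distance also takes in the size of the AP20187 difference, 2.56 on 1425139_at and 3.34 on 1451599_at, so no difference in pattern is read from it.

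Among the members that fell with AP20187, Sesn3 was nearest to Bcap31 (0.154), Papss1 (0.161) and Tmco1 (0.162), and Tsc2 to the galectin gene Lgals9 (0.101), the lysosomal mannosidase gene Man2b1 (0.105) and Mrpl42 (0.109). Eif4ebp2 1437733_at was nearest to Tle5 (0.121), the glutathione reductase gene Gsr (0.141) and the actin-severing gene Cfl1 (0.160), and its other called probe sets to Vma21 (0.165, 1417084_at), 1110032A03Rik (0.137, 1436158_at) and Tm9sf3 (0.151, 1455575_at). Eif4ebp1 1434976_x_at was nearest to Fam104a (0.103), Sh3glb1 (0.112) and the mitochondrial deacetylase gene Sirt3 (0.112), and 1417562_at to Ppp2r2d (0.161), the folate enzyme gene Fpgs (0.165) and Pla2g12a (0.167).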

How the data were processed

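Gene expression was measured on 16 single-colour Affymetrix arrays in 6 groups read from the labels. The values deposited by the authors are a linear ratio per probe set and array, to 2 decimals, the smallest 0.01 and array medians 0.94 to 1.02. The unit was read from the values; for the summary method and the denominator nothing was given in the sources used here. Per the labels' protocols, STAT60 and RNeasy RNA was copied into biotin cRNA. The 64 control probe sets were left out of the tests. Of the rest, 20380 had 1 symbol in the platform annotation, 691 several and 1555 none.

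An offset of 0.05 was added before log2. Linear models were fitted to each experiment apart with limma 3.58.1 in R 4.3.3 (variance trend, two-sided, threshold 0.05), with 6 and 4 residual degrees of freedom for the TTR::Fv2E-PERK and diet fits, and tested on simulated data. Files were read with the R package data.table (version 1.17.8), and plots used pandas 2.3.3 and matplotlib 3.10.9. The number of arrays limits the precision. Replicates of a group correlated at 0.442 to 0.658 (log2), and none was a duplicate.

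The members and lists were chosen with earlier results of these data known. The rule for names takes all members, up to 6 called pathway probe sets per comparison with the largest absolute difference, and the nearest genes of members called with AP20187; in the comparisons within 1 diet or genotype, members that were not called are in part given only by counts or in a plot. Alternatives were other offsets, scalings, filters, variance models, samples in the fit, probe sets per gene, and each array left out.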

Additional observations from a re-analysis of the deposited data

Results flagged for a closer look

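In 3 of 36 groups of 4 arrays, 1 array stood far from the others, where chance gives about 1 in 20. On Sesn1 1454699_at the array at 0.95 (untreated replicate 3) lay below the other untreated arrays, at 1.39 to 1.46. On Eif4ebp2 1455575_at the AP20187 array at 0.77 (replicate 3) lay below the others, at 0.98 to 1.02. On Tsc1 1455252_at the AP20187 array at 1.05 (replicate 1) lay above the others, at 0.85 to 0.88.

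Sesn2 1425139_at was higher with HFD in both wildtype arrays and lower in both Alb::GC arrays. It was singled out from the 18 member probe sets for this pattern, and the share of all probe sets with it was not counted. The difference between the genotypes was -1.37 and did not pass (limma adjusted p = 0.220; 0.135 to 0.255 over the alternatives).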

How the results depend on the processing

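All 11 member calls with AP20187 held in the 7 alternatives to offset, scaling, filter, variance model and samples, and without each array. Of 17 called member values over all comparisons, 4 lost the call in at least 1 setting and none changed sign. Of 127 not called, 8 were called and 45 had another sign in at least 1 setting. No paired analysis was possible because array numbers in the labels run in sequence and pair no arrays across groups.

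Counts of calls in the diet experiment depended on the fit. With only the 2 groups compared, HFD in wildtype called 957 probe sets (3303 before), 0 members and 11 of the pathway; HFD in Alb::GC called 0 (1531 before), 0 members and 0 of the pathway; and genotype on HFD called 0 (30 before). With all 16 arrays in 1 fit, HFD in wildtype called 5110 with 3 members, HFD in Alb::GC 3519 with 4 members and 37 of the pathway, genotype 160 on LFD with 2 of the pathway, 256 on HFD and 162 averaged with 1 of the pathway, and the interaction 212 with 3 of the pathway. Under quantile normalization HFD in wildtype called 19 of the pathway (32 before), HFD in Alb::GC 2 members and genotype on HFD 0. With array medians set to 0 HFD in Alb::GC called 2 members. Without the variance trend genotype on HFD called 15 and the interaction 5, and with an offset of 0.25 genotype on HFD called 66.

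Leaving out each array gave 6162 to 7548 calls with AP20187 (7724 with all), 11 to 12 of them members and 53 to 64 of the pathway. HFD in wildtype gave 47 to 2590, with 0 to 1 member and 0 to 26 of the pathway, and HFD in Alb::GC 18 to 1680, with 0 to 1 and 0 to 24. HFD averaged gave 3287 to 5035 (6233 with all), with 2 to 4 members and 29 to 45 of the pathway. Genotype on HFD gave 0 in each. Where a group had 1 array left, it was assumed to vary like the other groups. The arrays hold no signal over background, so a low level and no level could not be told apart.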
